A study of Mus musculus with 6 samples.

Results

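The genes described here are 10 mouse genes of cellular iron handling, taken from a gene count table of 54532 genes. They are Hfe, Tfrc, Steap3, Slc11a2 and Slc39a14 for iron uptake, Fth1 and Ftl1 for storage, Slc40a1 for export, and Aco1 and Ireb2 for sensing. They were listed by name for their function, except that Hfe was chosen by its measured counts, which fell strongly with ALX-5407. The RNA came from CD4+ T cells of the spleens of male C57BL/6 mice, 6 to 8 weeks old by the study's methods, activated with antibodies to CD3 and CD28 and grown for 3 days with IL-2, IL-12 and an antibody to IL-4. These are Th1 conditions, which direct CD4+ T cells toward IFN-γ production. All 6 cultures had this treatment. In 3 of them the medium also held 500 nM ALX-5407, which blocks glycine uptake through the transporter GlyT1, and the other 3 held vehicle (0.1% DMSO) and are called Th1 below. The labels give a treatment of 72 h and the methods 24 h, and whether cultures came from separate mice is not stated, so p-values measure the spread between these cultures.

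Iron reaches most dividing cells bound to transferrin. The transferrin receptor carries it into endosomes, where it is reduced and moved to the cytosol, and what is not used is stored in ferritin shells or exported through ferroportin. Activated T cells depend on this route for DNA synthesis and respiration. A pair of iron regulatory proteins, IRP1 and IRP2, bind hairpins called iron-responsive elements when iron is scarce. A bound hairpin in the 5′ UTR blocks translation of the transcript, and bound hairpins in the 3′ UTR protect the transcript from decay.

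The hairpins of these transcripts are shown because they set out which members share this control. GENCODE M21 transcripts (GRCm38, the build of the counts) were searched on the transcript strand for a C, any 5 bases, CAGTGN, and 5 bases pairing with the first 5. Of the 10 genes, 4 held such a match in a UTR. Fth1, Ftl1 and Slc40a1 had 1 each in the 5′ UTR, as had 0.142% of 21901 protein-coding genes, and Tfrc had 4 in the 3′ UTR, where 0.589% of genes held any. Slc11a2 had a match in its 3′ UTR when 1 unpaired base was allowed in the 3′ arm, a form found in the 3′ UTR of 1.06% of genes and searched for after the first search had been seen. The capitals mark the first 5 bases of the loop, and each sequence is written 5′ to 3′ as DNA letters.
Fth1, 5′ UTR, chr19:9982732-9982760, + strand: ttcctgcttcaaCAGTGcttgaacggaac
Ftl1, 5′ UTR, chr7:45459779-45459807, - strand: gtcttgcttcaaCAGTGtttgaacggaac
Slc40a1, 5′ UTR, chr1:45925465-45925493, - strand: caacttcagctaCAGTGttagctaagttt
Tfrc, 3′ UTR, chr16:32631219-32631247, + strand: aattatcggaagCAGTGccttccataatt
Tfrc, 3′ UTR, chr16:32631598-32631626, + strand: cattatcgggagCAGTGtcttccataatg
Tfrc, 3′ UTR, chr16:32631663-32631691, + strand: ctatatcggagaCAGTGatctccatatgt
Tfrc, 3′ UTR, chr16:32631710-32631738, + strand: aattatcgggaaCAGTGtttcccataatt
Slc11a2, 3′ UTR, chr15:100395153-100395181, - strand: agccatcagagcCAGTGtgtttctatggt

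Each library held between 30801753 and 36727788 counts. Levels are given as CPM (counts scaled to library size with TMM), and comparisons between genes as RPKM (the same per kilobase of deposited gene length). Which transcripts of a gene were in use is not known, so comparisons between genes are approximate. Of all genes, 15938 passed a filter on low counts and were tested with edgeR's quasi-likelihood test, and p-values were adjusted over these genes by the Benjamini-Hochberg method. SE below is the standard error of a log2 fold change (ALX-5407 over vehicle). It was calculated as the absolute log2 fold change divided by the square root of edgeR's F statistic. For Hfe it is a description only. The T cell markers Cd3d, Cd3e, Cd3g, Cd247, Trac, Cd4, Cd5, Cd28 and Lck summed to 2996 to 3161 CPM in Th1 cultures and 3051 to 3097 CPM with ALX-5407, with Cd5 and Cd28 called higher and Cd3d, Cd3g and Cd4 called lower. Of 14 macrophage markers, 7 had at most 3 counts in any library, among them Adgre1 and the C1q genes. The summed macrophage list was 16.6 to 22.2 CPM in Th1 cultures and 5.81 to 7.16 CPM with ALX-5407, and both of its tested genes, Cd68 and Mrc1, were lower. Most of the sum was Cd68, at 14.8 to 20.7 CPM in Th1 cultures and 5.04 to 5.65 CPM with ALX-5407. The untested genes had at most 15 counts in any library and went either way. The B cell list summed to 7.60 to 8.85 CPM and 11.5 to 14.4 CPM, with 3 of 5 genes called higher, the NK cell list to 1.92 to 3.41 CPM and 4.96 to 5.58 CPM, most of it Eomes, which T cells also express, and the erythroid list to 12.3 to 13.5 CPM and 7.70 to 9.91 CPM. The neutrophil list summed to 69.9 to 75.3 CPM and 24.1 to 31.6 CPM, nearly all of it Ly6g, while its markers S100a8, S100a9, Mpo and Elane had at most 3 counts in any library. The CD8 list summed to 9.25 to 9.59 CPM and 6.71 to 8.87 CPM, and the dendritic cell list to 4.05 to 4.87 CPM and 3.00 to 3.73 CPM. The Th1 list, with Ifng, summed to 1213 to 1394 CPM and 984 to 1022 CPM. Of its 5 genes, Tbx21 was called higher, Ifng and Stat4 lower, and Il12rb2 and Cxcr3 were not called. The part of these shifts in the iron gene values was not tested. In bulk RNA, fewer cells of a type and less RNA per cell cannot be told apart.

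With ALX-5407, the iron genes moved in both directions. Hfe was nearly lost, the importer Slc11a2 and the ferritin heavy chain gene Fth1 fell, and the ferritin light chain gene Ftl1 and both sensor genes, Aco1 and Ireb2, rose. Tfrc, Slc39a14 and Steap3 did not pass the test, and Slc40a1 had no count. Leaving Hfe aside, 5 of 8 tested genes had an adjusted p-value under 0.05 (edgeR, over all genes tested), where 47.7% of all genes tested did. By direction, 3 were higher and 2 lower, against 24.5% and 23.2% of all genes. The groups did not overlap for 6 of these 8 genes, against 55.5% of all genes. The treated libraries lay above in 3 of them and below in 3, against 28.4% and 27.1%. The median absolute log2 fold change of the 8 genes was 0.31, and that of all genes tested was 0.36. Among 8 genes these counts are near the background and are not read as a result about the group. Hfe, chosen for its fall, was the 1 member with an absolute log2 fold change over 1, and nothing is read from this beside the 6.68% of all genes that were called lower by that much.

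**Figure D1:**
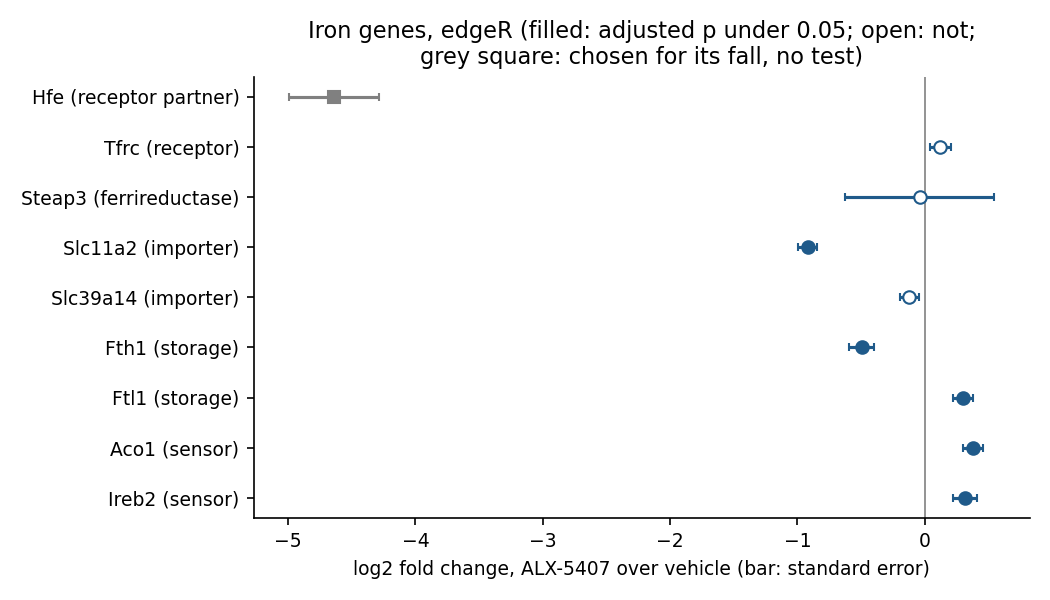
Log2 fold change (ALX-5407 over vehicle, horizontal axis) of the 9 iron genes with enough counts, from edgeR on 3 libraries per group, with standard errors as bars, filled circles for an adjusted p-value under 0.05, open circles for the rest and a grey square, without a test, for Hfe. Hfe stands at -4.64, Slc11a2 at -0.92 and Fth1 at -0.49, while Ftl1, Aco1 and Ireb2 lie between 0.30 and 0.38.

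By level, Fth1 led in both groups, at 787 ± 126 RPKM in Th1 cultures (SD, n = 3), above 99.7% of the genes tested. These values rest on the deposited Fth1 length of 866 bases, where GENCODE M21 has 3469 exon bases. With the longer length its RPKM would be lower. For the other members the deposited length equals the M21 exon bases. Tfrc at 91.7 ± 10.9 and Ftl1 at 78.4 ± 6.02 RPKM (SD, n = 3 each) came next, and their libraries overlapped. Slc11a2 followed at 19.2 ± 1.48 RPKM (SD, n = 3). Aco1 at 10.3 ± 0.401 and Slc39a14 at 9.99 ± 0.731 RPKM (SD, n = 3 each) overlapped, and Ireb2 lay below both at 7.14 ± 0.697 (SD, n = 3). Hfe stood far lower at 1.19 ± 0.0161 RPKM (SD, n = 3), and Steap3 was at the edge of detection. With ALX-5407, Aco1 at 13.3 ± 0.741 RPKM (SD, n = 3) passed Slc11a2 at 10.1 ± 0.235 (SD, n = 3), with no overlap between their libraries.

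**Figure D2:**
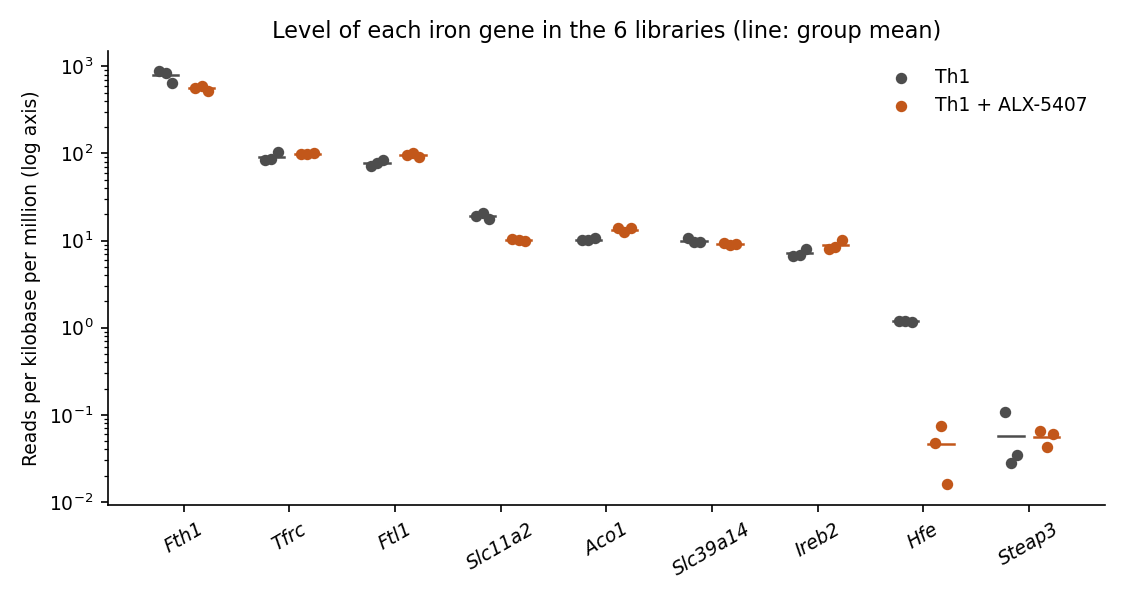
Level of each gene in each library, in RPKM on a log axis, with Th1 cultures in grey, ALX-5407 cultures in orange and group means as lines. Fth1 spans 642 to 874 in Th1 cultures and 517 to 587 with ALX-5407. Hfe spans 1.17 to 1.21 in Th1 cultures but 0.0160 to 0.0750 with ALX-5407. Slc40a1, with 0 counts in all 6 libraries, is not drawn.

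Hfe (chromosome 13, 23702034 to 23710854, - strand) encodes a protein of the MHC class I family that pairs with β2-microglobulin, binds the transferrin receptor and, in the liver, takes part in sensing of transferrin-bound iron. It had 138, 135 and 129 counts in the Th1 cultures and 6, 10 and 2 counts with ALX-5407. Mean levels were 4.24 ± 0.0574 and 0.165 ± 0.106 CPM (SD, n = 3 each). The treated mean was 25.7-fold lower, with a log2 fold change of -4.64 (SE 0.351). The Th1 libraries lay within 4.19 to 4.31 CPM and no treated library exceeded 0.268 CPM. As this fall chose the gene, it is given without a test. The summed macrophage list given above, most of it Cd68, was also lower with ALX-5407, and its part in the values of Hfe was not tested.

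No other annotated gene overlaps Hfe, which lies within a histone gene cluster. The nearest protein-coding gene on either side gave other values. Hist1h4c, 3580 bases away, had 26, 9 and 15 counts without and 18, 18 and 8 counts with ALX-5407 (log2 fold change -0.36, edgeR adjusted p = 0.594). Hist1h1c, 27954 bases away on the other side and encoding a linker histone, rose from 5.11 ± 0.786 to 7.88 ± 1.26 CPM (SD, n = 3 each; log2 fold change 0.62, edgeR adjusted p = 0.00572).

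B2m, which encodes β2-microglobulin, had 1472, 1565 and 1557 CPM in Th1 cultures and 1457, 1455 and 1363 CPM with ALX-5407, a log2 fold change of -0.10 (edgeR adjusted p = 0.234). Tfr2, the second transferrin receptor and a partner of HFE in the liver, had 2.76, 2.55 and 2.73 CPM against 2.10, 2.01 and 1.28 CPM (log2 fold change -0.58, edgeR adjusted p = 0.0625). Its groups did not overlap, but it did not pass the test. Hepcidin, the hormone that this axis controls in the liver, was barely read, with Hamp at 11, 7 and 1 counts without and 4, 1 and 0 counts with ALX-5407. Hemojuvelin, listed as Hfe2, had at most 6 counts in any library. Of 21 listed genes of HFE's partners and the hepcidin axis, 15 were tested, of which 2 were higher and 4 lower. That is 40.0% called, where 47.7% of all genes were, and the median log2 fold change was -0.02 against 0.01 over all genes tested. The 3 with the smallest p-values were Smad4 (-0.35, adjusted p = 0.00109), Smad1 (0.52, adjusted p = 0.00182) and Bmpr1a (-0.26, edgeR adjusted p = 0.0289), parts of bone morphogenetic protein signalling.

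Genes whose level followed that of Hfe most closely over the 6 libraries were Anxa5, Pan2, Ntrk3, Sra1 and Galc. Pearson's r of log2(CPM + 0.5) was 0.9994 to 0.9996, out of 12116 other genes with a mean of at least 50 counts. The 6 points form 2 groups, so r mostly restates the difference between groups and is a description only. These genes differed in size of change, from -0.33 for Anxa5, a phosphatidylserine-binding annexin, to -2.13 for Ntrk3, a neurotrophin receptor.

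Tfrc (chromosome 16, 32608920 to 32632794, + strand) encodes the transferrin receptor, the main entry of iron into activated T cells. It had 521, 535 and 644 CPM in Th1 cultures and 604, 616 and 630 CPM with ALX-5407. The groups overlapped, since Th1 replicate 3 exceeded all treated libraries. The log2 fold change was 0.12 (SE 0.0819, edgeR adjusted p = 0.239). Without Th1 replicate 3 it was 0.21 (SE 0.0606, edgeR adjusted p = 0.00965), so this library decides whether Tfrc is called. Uba3, mt-Rnr2, Slc26a6, Capza1 and the activation marker Cd69 followed Tfrc most closely over the 6 libraries (Pearson's r 0.986 to 0.997). In each of these genes, as in Tfrc, Th1 replicate 3 lay above the other Th1 replicates. Their r thus partly restates this library and is a description only.

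Steap3, an endosomal ferrireductase that is prominent in red cell precursors, had 20, 5 and 6 counts without and 13, 9 and 12 counts with ALX-5407. At 31 and 34 reads per group its change could not be resolved (log2 fold change -0.04, SE 0.585, edgeR adjusted p = 0.966). The other Steap family reductase genes, Steap1, Steap2 and Steap4, had at most 13 counts in any library and did not pass the filter.

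Slc11a2 (chromosome 15, 100387898 to 100425072, - strand) encodes DMT1, the transporter that carries ferrous iron out of endosomes. It fell from 122, 131 and 113 CPM to 66.0, 64.3 and 63.0 CPM. Every treated library lay below every Th1 library by a wide margin, and the means were 122 ± 9.39 and 64.5 ± 1.49 CPM (SD, n = 3 each). The log2 fold change was -0.92 (SE 0.0754, edgeR adjusted p = 8.60e-08), and 14.0% of all genes tested changed by more. Of 6 annotated coding transcripts, 1 holds the 3′ hairpin printed above, and gene counts do not separate it from the others. Gm5475 on the opposite strand shares 402 exon bases with Slc11a2, or 6.33% of its exons, and fell from 4.51 ± 0.377 to 1.00 ± 0.424 CPM (SD, n = 3 each; log2 fold change -2.16, edgeR adjusted p = 6.53e-06). The use of strand in counting is not stated, so reads of the shared bases cannot be assigned. With the counts of both genes added, the log2 fold change of Slc11a2 was -0.95.

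The other importer, Slc39a14 (chromosome 14, 70303469 to 70351425, - strand), encodes ZIP14, which carries zinc, manganese and iron not bound to transferrin. It had 114, 100 and 102 CPM in Th1 cultures and 99.6, 94.8 and 96.6 CPM with ALX-5407. The treated libraries lay just below the Th1 libraries, and the difference did not pass the test (log2 fold change -0.12, SE 0.0737, edgeR adjusted p = 0.194). Its close relative Slc39a8, which encodes ZIP8, fell from 72.2 ± 2.71 to 49.3 ± 1.5 CPM (SD, n = 3 each; log2 fold change -0.55, edgeR adjusted p = 1.25e-05). Within a library, reads per kilobase of Slc39a14 came to 0.564, 0.459 and 0.544 times those of Slc11a2 in Th1 cultures. With ALX-5407 the ratio was 0.908, 0.888 and 0.923, above every Th1 library. The lengths used, 10550 bases for Slc39a14 and 6354 for Slc11a2, span the exons of all their annotated transcripts. The size of the ratio depends on these lengths, and its relative change between groups does not.

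Among other genes of the endosomal route and of import, more were lower than higher. Of 18 listed, 12 were tested, of which 6 were lower and 2 higher, where 23.2% of all genes tested were lower and 24.5% higher. The median log2 fold change was -0.32. Exoc6, an exocyst subunit needed for transferrin receptor recycling in red cell precursors, fell from 193, 181 and 204 CPM to 87.8, 86.2 and 88.1 CPM (log2 fold change -1.14, edgeR adjusted p = 5.16e-09). Mcoln1, a cation channel of late endosomes and lysosomes that passes iron, fell by 0.62 on the log2 scale (edgeR adjusted p = 1.39e-05). The macrophage iron transporter Slc11a1 and the siderophore-binding Lcn2 did not pass the filter.

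The ferritin shell is built of heavy and light chains. The heavy chain oxidises iron for storage and the light chain favours formation of the iron core. Fth1 (chromosome 19, 9982703 to 9985092, + strand) had 757, 731 and 556 CPM in Th1 cultures and 494, 509 and 448 CPM with ALX-5407. The groups did not overlap, with Th1 replicate 3 nearest to the treated libraries. The log2 fold change was -0.49 (SE 0.0992, edgeR adjusted p = 0.000632), and it ranged from -0.64 to -0.42 when single libraries were left out.

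Ftl1 (chromosome 7, 45457944 to 45459884, - strand) moved the other way. It rose from 97.1, 105 and 113 CPM to 129, 135 and 123 CPM, again with no overlap. The log2 fold change was 0.30 (SE 0.0757, edgeR adjusted p = 0.00376). Fth1 and Ftl1 carry almost the same 5′ hairpin, as printed above, and their transcripts changed in opposite directions.

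The ratio of Fth1 to Ftl1, in reads per kilobase within a library, was 12.1, 10.8 and 7.59 in Th1 cultures. With ALX-5407 it was 5.92, 5.82 and 5.61. The mean went from 10.2 ± 2.30 to 5.78 ± 0.156 (SD, n = 3 each), and every treated library lay below every Th1 library. The size of the ratio rests on the deposited length of Fth1 given above, and its relative change between groups does not. Processed copies could take reads from either gene. Of 3 copies of Fth1 and 19 of Ftl1 with at least 80% identity, counted copies held at most 0.203% and 3.66% of the summed reads. With copies added to the parent genes, the log2 fold changes were -0.49 and 0.29. On the opposite strand, Gm10252 shares 26.5% of the exon bases of Ftl1 and had at most 14 counts in any library.

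**Figure D3:**
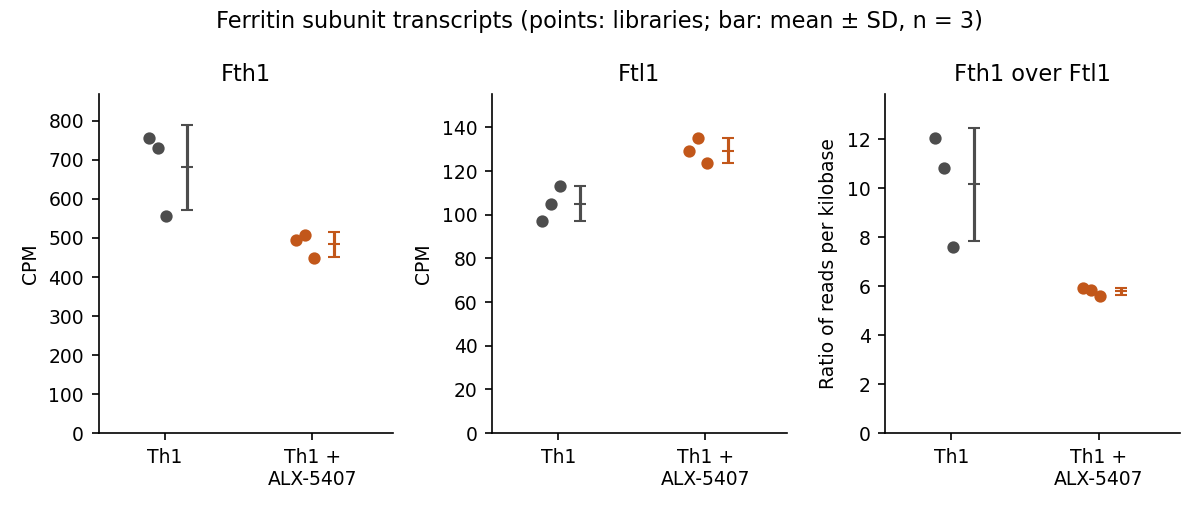
CPM of Fth1 and of Ftl1 and the ratio of their reads per kilobase in each library, with group mean and SD (n = 3) beside the points. Fth1 falls from a mean of 681 to 484 CPM, Ftl1 rises from 105 to 129 CPM, and the ratio falls from 10.2 to 5.78.

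The main genes for loading ferritin with iron and for breaking it down did not pass the test. Pcbp1, an iron chaperone that delivers iron to ferritin, had 406 ± 52.8 and 396 ± 20.6 CPM (SD, n = 3 each; log2 fold change -0.04, edgeR adjusted p = 0.758). Ncoa4, the receptor that takes ferritin to autophagosomes, had 50.6 ± 5.48 and 52.1 ± 2.38 CPM (SD, n = 3 each; log2 fold change 0.04, edgeR adjusted p = 0.727). Herc2, a ubiquitin ligase that binds NCOA4, rose by 0.48 on the log2 scale (edgeR adjusted p = 2.98e-05). Tax1bp1 (-0.25, adjusted p = 0.00867) and Glrx3 (-0.22, edgeR adjusted p = 0.0154) were lower. Of 9 tested genes in this list, 1 was higher and 2 were lower, or 33.3% called against 47.7% of all genes.

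Slc40a1 (chromosome 1, 45908068 to 45926523, - strand) encodes ferroportin, the one known exporter of iron ions. It had 0 counts in each of the 6 libraries. A count of 0 allows up to 3 counts, which is 0.0804 to 0.0975 CPM depending on the library, for counting error only. Its transcript was therefore not detectable at this depth in either group, and no change can be stated. The ferroxidases that work with ferroportin, Heph, Hephl1 and Cp, did not pass the filter. Of 5 tested genes in the list of ferroxidases and of heme and iron carriers, Abcg2 (-0.51, adjusted p = 0.000429) and Slc48a1 (-0.23, edgeR adjusted p = 0.0216), which move heme, were lower. These make 40.0% of the 5 genes called, where 47.7% of all genes tested were. None was higher by edgeR, DESeq2 or limma-voom, and 0 were higher at an unadjusted p under 0.05 in edgeR.

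Both sensor genes rose. Aco1 (chromosome 4, 40143081 to 40198338, + strand) encodes IRP1, which serves as cytosolic aconitase while it holds an iron-sulfur cluster. It had 45.2, 45.1 and 48.3 CPM in Th1 cultures and 62.0, 56.2 and 61.9 CPM with ALX-5407. The groups were well apart, with a log2 fold change of 0.38 (SE 0.0769, edgeR adjusted p = 0.000696). Ireb2 (chromosome 9, 54863789 to 54912530, + strand) encodes IRP2, which is destroyed when iron is plentiful. It had 62.7, 65.1 and 75.1 CPM and then 76.6, 80.1 and 95.9 CPM, so that the lowest treated library lay just above the highest Th1 library. The log2 fold change was 0.32 (SE 0.0933, edgeR adjusted p = 0.0104). It was 0.26 (edgeR adjusted p = 0.0673) without Th1 replicate 1 and 0.22 (edgeR adjusted p = 0.0706) without ALX-5407 replicate 3. The ratio of Ireb2 to Aco1 in reads per kilobase overlapped between groups, at 0.694 ± 0.0412 and 0.666 ± 0.0754 (SD, n = 3 each).

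Fbxl5, the iron-sensing subunit of the ubiquitin ligase that marks IRP2 for destruction, fell from 107, 114 and 139 CPM to 63.8, 66.7 and 67.9 CPM. The groups did not overlap, and the log2 fold change was -0.86 (SE 0.0892, edgeR adjusted p = 9.82e-07). Its partners in the ligase, Skp1a, Cul1 and Rbx1, had log2 fold changes between -0.03 and 0.07 and did not pass the test. Among genes of cytosolic iron-sulfur cluster assembly, Fam96b fell by 0.68 on the log2 scale (edgeR adjusted p = 2.39e-06) and Nubp2 rose by 0.81 (edgeR adjusted p = 3.17e-06). Of 13 tested genes in this list, 2 were higher and 3 lower, or 38.5% called against 47.7% of all genes, with a median of -0.03.

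Among 6 tested transcripts outside the 10 genes that are known to carry an iron-responsive element, the median log2 fold change was -0.02. Cdc14a, a phosphatase gene, was higher (log2 fold change 0.51, edgeR adjusted p = 0.00059). Among the 5 hairpin-bearing members, the carriers of a 5′ hairpin had 1 gene lower, 1 higher and 1 without counts. Of the carriers of 3′ hairpins, Slc11a2 fell and Tfrc did not pass the test. Translation, on which a bound 5′ hairpin acts, was not measured, and the part of the hairpins in these transcript changes was not tested.

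**Figure D4:**
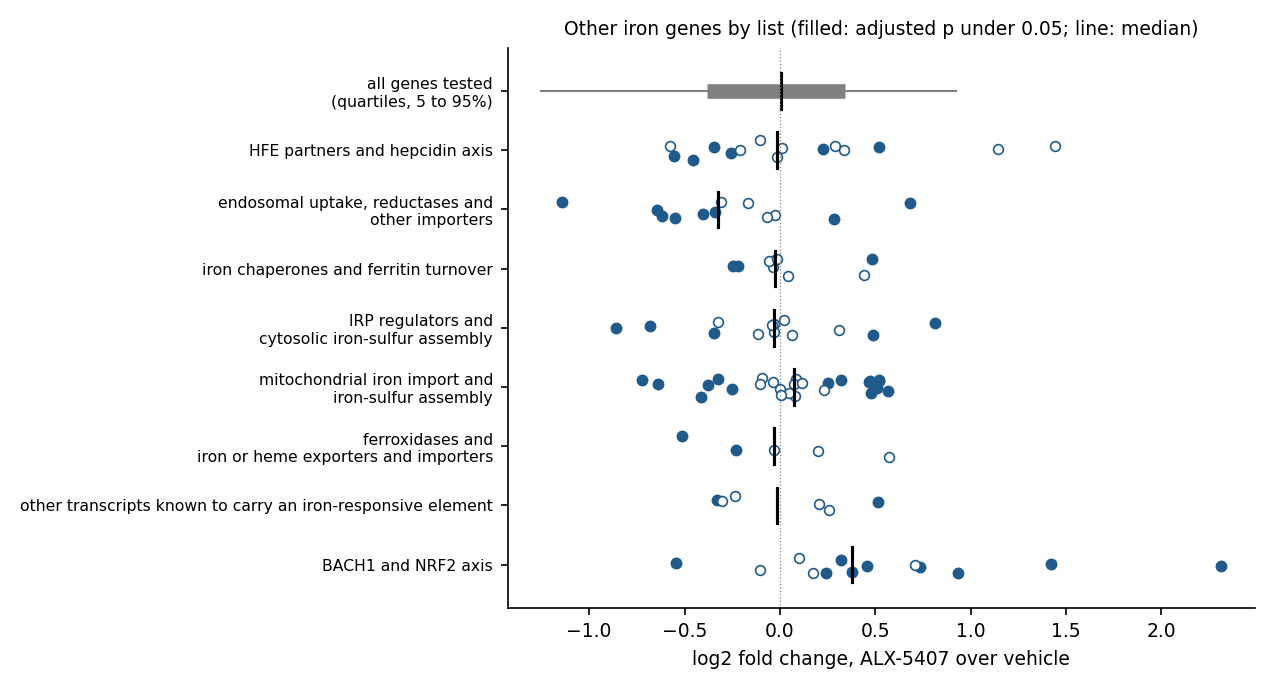
Log2 fold change (ALX-5407 over vehicle, horizontal axis) of each tested gene in 8 lists of other iron-related genes, with list medians as lines and all genes tested as a bar of quartiles with a line from the 5th to the 95th percentile. The list of endosomal uptake and importers has a median of -0.32 and the BACH1 and NRF2 list one of 0.38, while the other 6 lie between -0.03 and 0.08.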

How the data were processed

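RNA sequencing of 6 cultures was analysed from raw counts, which the authors deposited as whole reads per gene and library without normalization or pooling. Per the labels, the submitters' processing notes name fastp, HISAT2 2.0.5, featureCounts 1.5.0-p3 and build mm10, with no settings, so the treatment of multi-mapped reads and strand is not given in the sources used here. The methods describe depletion of ribosomal RNA and the labels capture on poly-T beads. Groups and replicate numbers came from the titles. Genes were kept by filterByExpr (minimum count 10, minimum total 15) and fitted in edgeR 4.0.16 under R 4.3.3. TMM factors, quasi-likelihood tests and Benjamini-Hochberg adjustment covered all 15938 genes kept. The call threshold was an adjusted p-value of 0.05. The procedure was tested on simulated data. A table column of gene lengths gave reads per kilobase. Of 54532 gene identifiers, 54409 were in GENCODE M21, 98.3% of them with the same start and end. Copies were found with BLAST 2.17.0.

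The members and lists were chosen with earlier results of these data known. Named were all members, up to 3 called genes with the smallest p-values in each of 8 lists of other iron genes compiled from general knowledge, fixed partners such as B2m, Fbxl5 and Ncoa4, neighbours and overlapping genes, and the 5 genes most like Hfe or Tfrc. Any other gene was named after its values were seen. With 3 libraries per group, an exact permutation test of 1 gene cannot give a p-value under 0.1. Alternatives were DESeq2 1.42.0, limma-voom 3.58.1, other normalizations and filters, a replicate block, summed copies and each library left out. A result of the list of transcripts with an iron-responsive element is not reported here.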

Additional observations from a re-analysis of the deposited data

How the results depend on the processing

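Slc11a2, Fth1, Ftl1 and Aco1 kept direction and call under each alternative run, which were other normalizations, DESeq2, limma-voom, no filter, a mean of at least 50 counts, protein-coding genes alone, the replicate block, summed copies, added Gm5475 counts and each library left out. With single libraries left out, log2 fold changes were -5.17 to -4.24 for Hfe (a description, since its fall chose it), -0.99 to -0.88 for Slc11a2, -0.64 to -0.42 for Fth1, 0.24 to 0.34 for Ftl1, 0.35 to 0.43 for Aco1, 0.22 to 0.39 for Ireb2, 0.058 to 0.208 for Tfrc, -0.17 to -0.07 for Slc39a14 and -0.37 to 0.82 for Steap3, positive without Th1 replicate 1 (0.82) or ALX-5407 replicate 2 (0.13). Ireb2 lost its call in 2 of these fits and Tfrc gained one in 1, as given above. Steap3, at 31 and 34 reads, was 0.18 in limma-voom and 0.11 with the replicate block, never called. When an absolute log2 fold change over 1 was also required, 0 members were higher and 1 lower, which is Hfe and was fixed by its choice. That rule gave 536 higher and 1064 lower of all genes, against 3910 and 3695. Whether the replicate numbers pair the cultures was not settled. The correlation of deviations was 0.0595, 0.0378 and 0.191 for the same numbers and -0.182 to 0.154 for different numbers. Not every culture was most like its own number. Deviations from a mean of 3 cultures sum to 0, so this check is weak. With the replicate block, 4071 genes were higher and 3833 lower, and no member changed its call. Upper-quartile scaling moved the split of all genes to 3413 higher and 4158 lower and their median log2 fold change to -0.05. Across the lists of other iron genes, 25 of 99 tested genes were higher and 25 lower. That is 50.5% called, near the 47.7% of all genes tested. Under the alternatives run on these lists 21 to 27 were higher and 25 to 29 lower. Genes with few counts, such as Steap3 and Hamp, have changes that this depth cannot resolve.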

Other observations

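Of 26 tested genes for iron import into mitochondria and iron-sulfur cluster assembly, 9 were higher and 6 lower, with a median log2 fold change of 0.08. That is 57.7% called, where 47.7% of all genes tested were. The mitochondrial iron importers differed from each other. Slc25a28 (mitoferrin-2) fell from 24.1 ± 1.95 to 18.5 ± 2.64 CPM (SD, n = 3 each; log2 fold change -0.38, edgeR adjusted p = 0.011), while Slc25a37 (mitoferrin-1) had 53.1 ± 1.40 and 56.4 ± 2.05 CPM (SD, n = 3 each; log2 fold change 0.09, edgeR adjusted p = 0.361). The co-chaperone gene Hscb (-0.64, adjusted p = 1.05e-05) and the ferredoxin gene Fdx1 (-0.72, edgeR adjusted p = 1.30e-05) fell, and the glutaredoxin gene Glrx5 rose (0.57, edgeR adjusted p = 3.78e-05). The proteins of Hscb and Glrx5 act in the same assembly pathway. The other ferredoxin gene of the list, Fdx1l, did not pass the filter.

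BACH1 represses and NRF2 activates ferritin, ferroportin and antioxidant genes. Of 13 tested genes of this axis, 8 were higher and 1 lower, where 24.5% and 23.2% of all genes tested were, with a median log2 fold change of 0.38. Bach1 itself rose from 21.1, 19.9 and 19.5 CPM to 41.7, 37.4 and 36.4 CPM (log2 fold change 0.93, edgeR adjusted p = 4.45e-07), and Nfe2l2, which encodes NRF2, had 46.9 ± 1.2 and 43.7 ± 5.14 CPM (SD, n = 3 each; edgeR adjusted p = 0.369). The cystine transporter gene Slc7a11 rose from 1.95 ± 0.135 to 9.71 ± 0.252 CPM (SD, n = 3 each; log2 fold change 2.31, edgeR adjusted p = 1.2e-08) and Txnrd1, a thioredoxin reductase gene, by 0.73 (edgeR adjusted p = 1.72e-06). Of the ferritin genes that this axis also controls, Ftl1 rose and Fth1 fell.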
